A study of Mus musculus with 23 samples.

Results

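Ion channels of the voltage-gated and potassium families were described in RNA sequencing of mouse hearts. They are the protein-coding genes whose symbols begin with Kcn, Scn, Cacn or Hcn followed by a letter or digit. The table held 143 such rows of 46077 genes, under 140 symbols, because Cacng6, Cacng7 and Cacng8 each had a second row on a patch sequence that was at 0 throughout. A gene counted as detected where its mean reached 1 FPKM (fragments per kilobase of gene per M fragments, M being 1000000) in at least 1 group, which 44 of the 143 did. Just inside that limit stood Kcnt2, at 1.02 FPKM in its highest group, and just outside it Kcnk2, at 0.916 FPKM.

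All mice were male and carried a floxed Panx1 gene (Panx1fl/fl), which encodes the pannexin 1 membrane channel. Knockout mice (Panx1myhc6 in the labels) lack the gene only where the alpha myosin heavy chain (Myh6) promoter has been active, so heart cells other than cardiomyocytes keep it. The groups were knockout (n = 4) and wild-type (n = 4) cardiomyocytes isolated after isoproterenol, knockout (n = 3) and wild-type (n = 3) cardiomyocytes isolated after saline, and whole hearts after isoproterenol labelled knockout (n = 4) and wild type (n = 5). Isoproterenol, a beta-adrenergic agonist, was given at 15 mg/kg/day for 14 days, and wild-type here means mice labelled Panx1fl/fl. The p-values measure the spread between libraries, which are taken as separate mice from their header identifiers.

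Voltage-gated sodium channels start the cardiac action potential, calcium channels sustain it and trigger contraction, and potassium channels end it and hold the resting potential. Pore subunits carry the current. Accessory subunits change how many pores reach the membrane and how fast they open and close. The mouse ventricle repolarises quickly, through transient outward and ultrarapid potassium currents. Pacemaker (Hcn) channels drive the spontaneous rhythm of nodal cells.

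Panx1 averaged 1.04 ± 0.123 FPKM in knockout and 1.55 ± 0.282 FPKM in wild-type isoproterenol cardiomyocytes, and 1.67 ± 0.361 FPKM in knockout and 2.21 ± 0.663 FPKM in wild-type saline cardiomyocytes (SD). In whole hearts it went against the labels, at 0.651 ± 0.189 FPKM where labelled knockout and 0.412 ± 0.0657 FPKM where labelled wild type. Assigned reads outside the mitochondrial chromosome ranged over 7.604 to 16.957 M per library in knockout isoproterenol cardiomyocytes and 5.06 to 5.897 M in wild-type ones, over 4.854 to 7.376 M in knockout saline cardiomyocytes and 9.019 to 13.371 M in wild-type ones, and over 22.414 to 30.64 M in whole hearts. The cardiomyocyte libraries held markers of other cells, of which erythroid ones were highest. The summed FPKM of 6 erythroid markers was 5568 to 69770 in isolated cardiomyocytes and 42.95 to 584.5 in whole hearts. The summed FPKM of 10 cardiomyocyte markers was 1231 to 11970 in isolated cardiomyocytes and 9424 to 18410 in whole hearts. The summed FPKM of 9 neutrophil markers was 23.76 to 3034 in isolated cardiomyocytes and 0.1928 to 13.06 in whole hearts, and that of 8 lymphocyte markers was 12.67 to 221.1 in isolated cardiomyocytes and 0.3744 to 7.368 in whole hearts. In these bulk libraries, fewer cells of a type and less RNA per cell cannot be told apart. Libraries PNXM654 and PNXM655 (knockout) and PNXM648 (wild type) stood apart among the isoproterenol cardiomyocytes, with cardiomyocyte marker sums of 11970, 8635 and 8839 against 2568 to 4075 in the other 5.

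Promoters are printed for 3 members on which the results below turn: Kcna5, the member called after isoproterenol, and the inward rectifiers Kcnj12 and Kcnj5, which are among the 4 members with the smallest p between isolated cells and whole hearts. Each runs from 250 bases before to 50 after the RefSeq start on GRCm38.p6, 5′ to 3′ on the gene's strand, with matches to a searched motif in capitals. Kcna5 lies at chr6:126535506-126535805 on the minus strand, Kcnj12 at chr11:61065554-61065853 on the plus strand and Kcnj5 at chr9:32344295-32344594 on the minus strand. The printed stretches of Kcna5 and Kcnj12 lie within the spans of those genes in the FPKM data, 126532553 to 126698192 and 61022564 to 61071131.
Kcna5: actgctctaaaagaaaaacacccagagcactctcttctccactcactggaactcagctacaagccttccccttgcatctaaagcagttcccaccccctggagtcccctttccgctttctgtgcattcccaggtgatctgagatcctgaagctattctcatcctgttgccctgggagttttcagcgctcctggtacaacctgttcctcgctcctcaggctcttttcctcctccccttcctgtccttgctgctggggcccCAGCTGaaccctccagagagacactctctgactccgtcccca
Kcnj12: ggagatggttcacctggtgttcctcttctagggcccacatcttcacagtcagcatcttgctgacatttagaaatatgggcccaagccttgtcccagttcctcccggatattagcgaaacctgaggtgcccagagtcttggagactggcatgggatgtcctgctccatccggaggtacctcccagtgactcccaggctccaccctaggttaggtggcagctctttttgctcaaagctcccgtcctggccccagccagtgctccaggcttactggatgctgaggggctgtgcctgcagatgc
Kcnj5: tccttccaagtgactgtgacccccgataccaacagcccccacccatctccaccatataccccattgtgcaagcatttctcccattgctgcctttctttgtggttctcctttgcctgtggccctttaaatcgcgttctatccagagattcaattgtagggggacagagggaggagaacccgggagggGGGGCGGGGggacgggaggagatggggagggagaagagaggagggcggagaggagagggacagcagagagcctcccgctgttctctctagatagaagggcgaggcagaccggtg
The capitals mark an E-box (CAGCTG) in Kcna5 and a GC box (GGGGCGGGG) in Kcnj5. A promoter was at hand for 26 of the 44 detected members, and 4 motifs were searched on both strands. A gene counted where any of its promoters matched. The E-box stood in 7 of the 26 (26.9%), against 18.3% of all 27025 genes with a promoter, and the GC box also in 7 (26.9%), against 12.9%. The GATA motif AGATAA stood in 1 of the 26, that of Scn7a (3.85%), against 12.7% of all genes with a promoter. The cAMP response element TGACGTCA stood in 0 of the 26, against 2.03%. These matches are descriptions of letters and not binding sites.

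**Figure D1:**
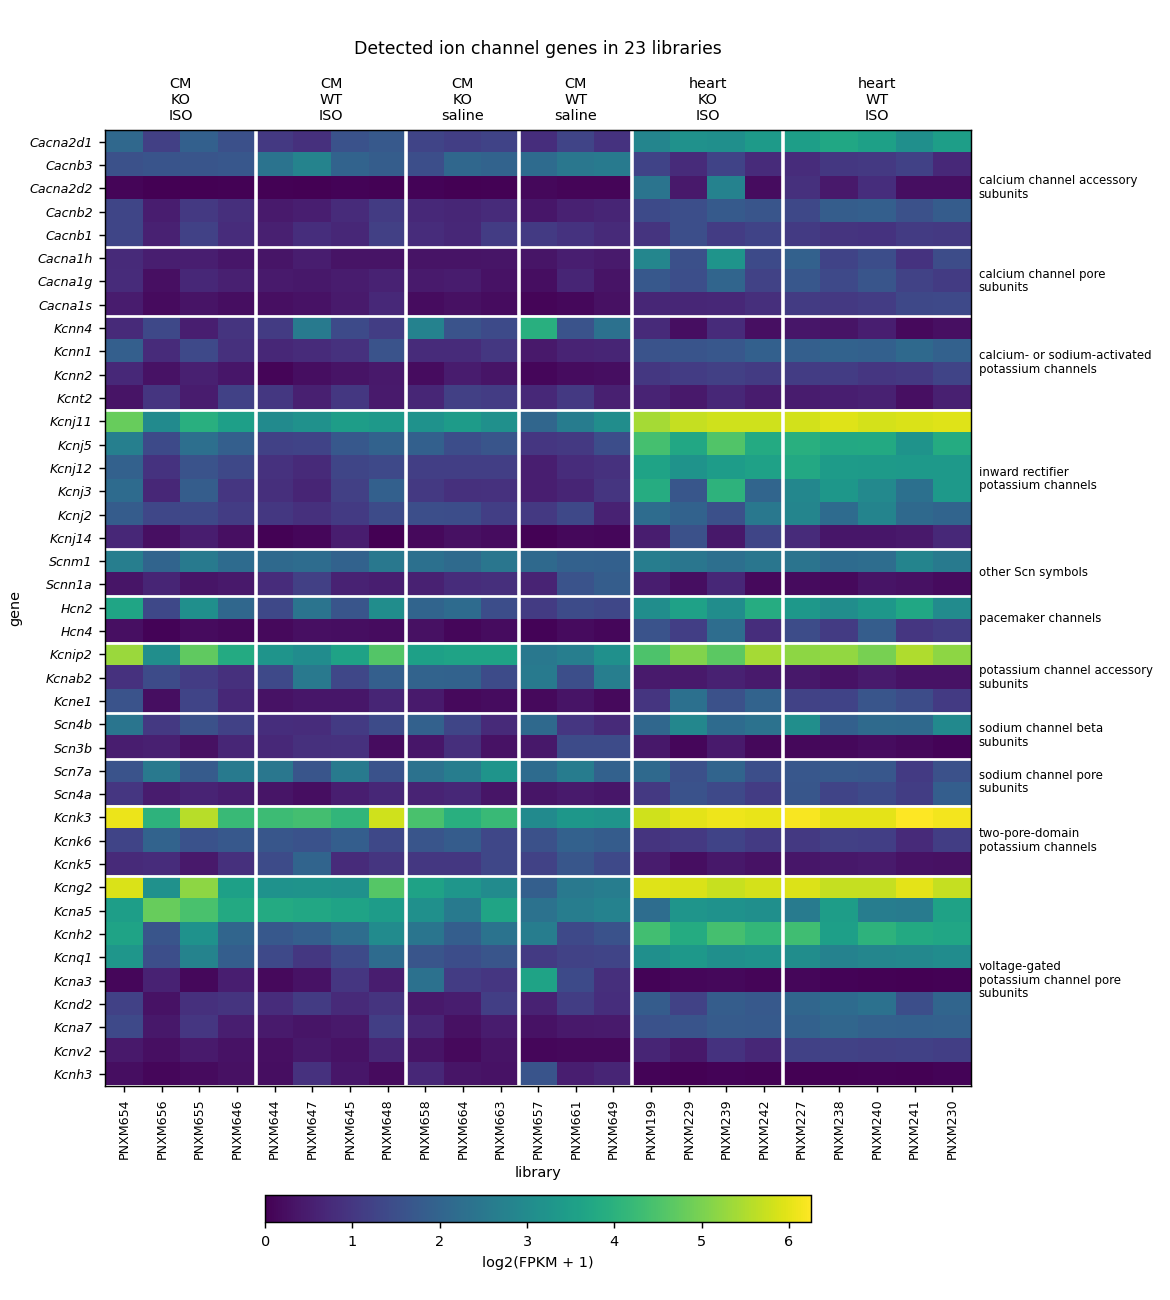
Levels of 41 of the 44 detected channel genes as log2(FPKM + 1) (colour) in each of the 23 libraries (columns, by group) with genes in rows by family. CM is isolated cardiomyocytes, KO knockout, WT wild type and ISO isoproterenol. Kcnk3, Kcng2, Kcnj11 and Kcnip2 are the brightest rows in whole hearts, and PNXM654, PNXM655 and PNXM648 are brighter than the other cardiomyocyte columns in many of the same rows.

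Detection differed by family. Among voltage-gated potassium pore subunits 10 of 40 rows were detected, among potassium accessory subunits 3 of 13, among inward rectifiers 6 of 14, among two-pore-domain channels 3 of 14, and among calcium- or sodium-activated potassium channels 4 of 12. Sodium pore subunits gave 3 of 10, sodium beta subunits 3 of 4, calcium pore subunits 3 of 9, calcium accessory subunits 5 of 19, pacemaker channels 2 of 4 and other Scn symbols 2 of 4. Of the 44, 32 reached the limit in a cardiomyocyte group, 36 in a whole-heart group and 18 in all 6 groups. Of a list of 32 channels known from cardiac electrophysiology 25 were detected. The missing 7 include Kcnd3 and Kcna4, pore subunits of the transient outward current, at 0.887 and 0.238 FPKM in their highest groups. In 7 rows no read was assigned in any library.

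Values below are mean FPKM ± SD, with n = 4, 4, 3, 3, 4 and 5 libraries in the order of groups given above. FPKM is per length, so levels may be compared between genes. Between groups the levels also depend on a scaling between libraries that the deposited FPKM carry. Kcng2, a modifier subunit that does not form channels alone, was the highest voltage-gated potassium gene in whole hearts and averaged 28.2 ± 23.7 FPKM in knockout and 11.95 ± 7.59 FPKM in wild-type isoproterenol cardiomyocytes, 9.01 ± 2.06 FPKM in knockout and 4.27 ± 1.35 FPKM in wild-type saline cardiomyocytes, and 57.1 ± 3.703 FPKM in hearts labelled knockout and 55.2 ± 5.704 FPKM in hearts labelled wild type. Kcna5, the Kv1.5 pore of the ultrarapid current, averaged 17.9 ± 7.68 FPKM in knockout and 11.7 ± 1.44 FPKM in wild-type isoproterenol cardiomyocytes, 8.08 ± 3.33 FPKM in knockout and 5.09 ± 0.919 FPKM in wild-type saline cardiomyocytes, and 7.01 ± 2.25 FPKM in hearts labelled knockout and 7.36 ± 3.06 FPKM in hearts labelled wild type. Under the deposited scaling its 3 highest group means were those of both isoproterenol cardiomyocyte groups and of knockout saline cardiomyocytes. Without that scaling the difference of log2(FPKM + 1) between isoproterenol cardiomyocytes and whole hearts turned to -0.18. Kcnh2, the ERG channel of the rapid delayed rectifier, had means of 2.94 to 6.16 FPKM over the cardiomyocyte groups, 17.5 ± 3.05 FPKM in hearts labelled knockout and 14.1 ± 3.45 FPKM in hearts labelled wild type. Kcnq1, the pore of the slow delayed rectifier, had means of 1.29 to 4.78 FPKM over the cardiomyocyte groups, 8.12 ± 0.6704 FPKM in hearts labelled knockout and 6.67 ± 0.624 FPKM in hearts labelled wild type. Apart from Kcna5, each of these 4 had higher means in both heart groups than in any cardiomyocyte group.

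Lower in the same family stood Kcnd2, the Kv4.2 pore of the transient outward current, which had means of 0.663 to 0.869 FPKM over the cardiomyocyte groups, 2.21 ± 0.573 FPKM in hearts labelled knockout and 3.16 ± 0.826 FPKM in hearts labelled wild type. Kcnv2, a modifier subunit, had means of 0.0977 to 0.337 FPKM over the cardiomyocyte groups, 0.596 ± 0.2297 FPKM in hearts labelled knockout and 1.296 ± 0.0433 FPKM in hearts labelled wild type. Other detected members of this family were Kcna3, Kcna7 and Kcnh3, with highest group means of 4.64, 2.88 and 1.03 FPKM. Kcna3, the Kv1.3 channel best known from T lymphocytes, and Kcnh3 were highest in wild-type saline cardiomyocytes. Among accessory subunits Kcnip2, which binds Kv4 pores, averaged 21.3 ± 14.02 FPKM in knockout and 12.4 ± 7.28 FPKM in wild-type isoproterenol cardiomyocytes, 11.1 ± 0.336 FPKM in knockout and 5.94 ± 1.63 FPKM in wild-type saline cardiomyocytes, and 30.1 ± 8.83 FPKM in hearts labelled knockout and 36.6 ± 5.105 FPKM in hearts labelled wild type. Kcnab2, a cytoplasmic beta subunit of Kv1 channels, averaged 1.13 ± 0.396 FPKM in knockout and 2.67 ± 1.52 FPKM in wild-type isoproterenol cardiomyocytes, 2.53 ± 0.714 FPKM in knockout and 4.01 ± 1.89 FPKM in wild-type saline cardiomyocytes, and 0.392 ± 0.0692 FPKM in hearts labelled knockout and 0.283 ± 0.06304 FPKM in hearts labelled wild type. The 2 accessory subunits had opposite orders of cardiomyocytes and hearts. Kcne1, the partner of Kcnq1 in the slow delayed rectifier, had means of 0.165 to 1.07 FPKM over the cardiomyocyte groups, 2.44 ± 1.29 FPKM in hearts labelled knockout and 1.53 ± 0.414 FPKM in hearts labelled wild type.

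The inward rectifiers hold the resting potential (Kcnj2 and Kcnj12), answer to ATP (Kcnj11) or open on acetylcholine receptor signalling (Kcnj3 and Kcnj5). Kcnj11, the Kir6.2 pore, averaged 14.7 ± 8.66 FPKM in knockout and 8.58 ± 1.39 FPKM in wild-type isoproterenol cardiomyocytes, 8.56 ± 1.103 FPKM in knockout and 5.25 ± 2.06 FPKM in wild-type saline cardiomyocytes, and 50.6 ± 6.19 FPKM in hearts labelled knockout and 58.6 ± 2.29 FPKM in hearts labelled wild type. Kcnj5, also called GIRK4, averaged 3.44 ± 1.65 FPKM in knockout and 1.98 ± 0.776 FPKM in wild-type isoproterenol cardiomyocytes, 2.21 ± 0.499 FPKM in knockout and 1.28 ± 0.441 FPKM in wild-type saline cardiomyocytes, and 17.1 ± 5.08 FPKM in hearts labelled knockout and 12.3 ± 2.38 FPKM in hearts labelled wild type. Kcnj12, the Kir2.2 pore, had means of 0.681 to 1.83 FPKM over the cardiomyocyte groups, 10.2 ± 1.36 FPKM in hearts labelled knockout and 10.2 ± 1.44 FPKM in hearts labelled wild type. Kcnj2, the Kir2.1 pore, had means of 1.05 to 1.697 FPKM over the cardiomyocyte groups, 3.28 ± 1.16 FPKM in hearts labelled knockout and 4.46 ± 1.56 FPKM in hearts labelled wild type. Kcnj3, also called GIRK1, had means of 0.657 to 1.94 FPKM over the cardiomyocyte groups, 8.64 ± 6.96 FPKM in hearts labelled knockout and 7.06 ± 2.17 FPKM in hearts labelled wild type. The last of the 6 detected, Kcnj14, reached a mean of at least 1 FPKM only in hearts labelled knockout, at 1.03 ± 0.781 FPKM. In each of the 6 genes both heart means exceeded all 4 cardiomyocyte means.

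Kcnk3, the acid-sensitive TASK-1 background channel, was the highest of all members in both heart groups. It averaged 36.5 ± 24.2 FPKM in knockout and 27.5 ± 18.5 FPKM in wild-type isoproterenol cardiomyocytes, 17.7 ± 3.24 FPKM in knockout and 8.14 ± 1.03 FPKM in wild-type saline cardiomyocytes, and 62.7 ± 5.54 FPKM in hearts labelled knockout and 68.7 ± 5.63 FPKM in hearts labelled wild type. Kcnk6, another two-pore-domain channel, averaged 2.17 ± 0.651 FPKM in knockout and 2.11 ± 0.448 FPKM in wild-type isoproterenol cardiomyocytes, 2.06 ± 0.501 FPKM in knockout and 2.43 ± 0.479 FPKM in wild-type saline cardiomyocytes, and 1.12 ± 0.203 FPKM in hearts labelled knockout and 1.09 ± 0.239 FPKM in hearts labelled wild type. The third member detected, Kcnk5, was between 0.642 and 1.70 FPKM in the cardiomyocyte groups and at 0.282 FPKM in hearts labelled knockout and 0.285 FPKM in hearts labelled wild type. Among channels gated by calcium, Kcnn4, the intermediate-conductance channel known from blood cells, averaged 0.896 ± 0.473 FPKM in knockout and 2.21 ± 1.76 FPKM in wild-type isoproterenol cardiomyocytes, 3.19 ± 2.34 FPKM in knockout and 6.88 ± 6.71 FPKM in wild-type saline cardiomyocytes, and 0.439 ± 0.285 FPKM in hearts labelled knockout and 0.259 ± 0.115 FPKM in hearts labelled wild type. Kcnn1, a small-conductance channel, averaged 1.46 ± 0.911 FPKM in knockout and 1.05 ± 0.654 FPKM in wild-type isoproterenol cardiomyocytes, 0.802 ± 0.1797 FPKM in knockout and 0.489 ± 0.128 FPKM in wild-type saline cardiomyocytes, and 2.29 ± 0.342 FPKM in hearts labelled knockout and 2.95 ± 0.277 FPKM in hearts labelled wild type. Kcnn2, another small-conductance channel, had means of 0.137 to 0.415 FPKM over the cardiomyocyte groups, 1.14 ± 0.1096 FPKM in hearts labelled knockout and 1.15 ± 0.169 FPKM in hearts labelled wild type. Kcnt2 was highest in knockout saline cardiomyocytes.

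Among the sodium channel genes Scn7a, a sodium-sensing relative of the voltage-gated pores, averaged 3.53 ± 1.49 FPKM in knockout and 3.397 ± 1.56 FPKM in wild-type isoproterenol cardiomyocytes, 5.97 ± 2.22 FPKM in knockout and 3.88 ± 1.21 FPKM in wild-type saline cardiomyocytes, and 2.54 ± 0.804 FPKM in hearts labelled knockout and 1.96 ± 0.5205 FPKM in hearts labelled wild type. Scn4a, the skeletal muscle channel, was at 1.45 ± 0.421 FPKM in hearts labelled knockout and 1.83 ± 0.604 FPKM in hearts labelled wild type. Scn4b, a beta subunit, averaged 2.16 ± 1.52 FPKM in knockout and 1.06 ± 0.4402 FPKM in wild-type isoproterenol cardiomyocytes, 1.65 ± 1.09 FPKM in knockout and 1.71 ± 1.4998 FPKM in wild-type saline cardiomyocytes, and 4.36 ± 1.45 FPKM in hearts labelled knockout and 4.81 ± 2.204 FPKM in hearts labelled wild type. Scn3b reached 1 FPKM only in wild-type saline cardiomyocytes, at 1.24 ± 0.790 FPKM. Scnm1, a splicing factor that shares the prefix and is no channel, averaged 4.195 ± 1.09 FPKM in knockout and 3.65 ± 0.721 FPKM in wild-type isoproterenol cardiomyocytes, 3.95 ± 0.498 FPKM in knockout and 3.03 ± 0.356 FPKM in wild-type saline cardiomyocytes, and 4.54 ± 0.587 FPKM in hearts labelled knockout and 4.51 ± 1.03 FPKM in hearts labelled wild type. Scnn1a, a subunit of the epithelial sodium channel, was highest in wild-type saline cardiomyocytes at 1.70 ± 1.06 FPKM.

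Calcium pore subunits detected were Cacna1h and Cacna1g, which carry T-type current, and Cacna1s, the skeletal muscle L-type pore. Cacna1h averaged 0.463 ± 0.157 FPKM in knockout and 0.299 ± 0.0731 FPKM in wild-type isoproterenol cardiomyocytes, 0.263 ± 0.00959 FPKM in knockout and 0.363 ± 0.0809 FPKM in wild-type saline cardiomyocytes, and 4.54 ± 3.33 FPKM in hearts labelled knockout and 1.74 ± 0.729 FPKM in hearts labelled wild type. Cacna1g averaged 0.496 ± 0.221 FPKM in knockout and 0.396 ± 0.0909 FPKM in wild-type isoproterenol cardiomyocytes, 0.327 ± 0.0784 FPKM in knockout and 0.326 ± 0.2098 FPKM in wild-type saline cardiomyocytes, and 2.15 ± 0.764 FPKM in hearts labelled knockout and 1.69 ± 0.475 FPKM in hearts labelled wild type. Cacna1s had means of 0.125 to 0.361 FPKM over the cardiomyocyte groups, 0.653 ± 0.0993 FPKM in hearts labelled knockout and 1.301 ± 0.2501 FPKM in hearts labelled wild type. None of the 3 reached 1 FPKM in any cardiomyocyte group. The alpha2delta subunit Cacna2d1 averaged 2.304 ± 0.905 FPKM in knockout and 1.55 ± 0.726 FPKM in wild-type isoproterenol cardiomyocytes, 1.36 ± 0.108 FPKM in knockout and 1.03 ± 0.362 FPKM in wild-type saline cardiomyocytes, and 7.83 ± 1.39 FPKM in hearts labelled knockout and 10.3 ± 1.67 FPKM in hearts labelled wild type. The beta subunit Cacnb3 averaged 2.09 ± 0.123 FPKM in knockout and 3.904 ± 1.503 FPKM in wild-type isoproterenol cardiomyocytes, 2.697 ± 0.7397 FPKM in knockout and 4.37 ± 0.709 FPKM in wild-type saline cardiomyocytes, and 1.05 ± 0.382 FPKM in hearts labelled knockout and 0.954 ± 0.273 FPKM in hearts labelled wild type. Cacnb2, the beta subunit usual in cardiomyocytes, had means of 0.455 to 0.9401 FPKM over the cardiomyocyte groups, 2.01 ± 0.344 FPKM in hearts labelled knockout and 2.27 ± 0.5001 FPKM in hearts labelled wild type. Cacnb1 and Cacna2d2 were also detected, with highest group means of 1.32 and 2.67 FPKM, both in hearts labelled knockout. Of the pacemaker channels, Hcn2 averaged 6.07 ± 4.599 FPKM in knockout and 3.83 ± 2.61 FPKM in wild-type isoproterenol cardiomyocytes, 2.81 ± 0.926 FPKM in knockout and 1.44 ± 0.274 FPKM in wild-type saline cardiomyocytes, and 9.81 ± 3.03 FPKM in hearts labelled knockout and 8.95 ± 2.11 FPKM in hearts labelled wild type. Hcn4, the main sinoatrial isoform, averaged 0.119 ± 0.0674 FPKM in knockout and 0.1601 ± 0.0379 FPKM in wild-type isoproterenol cardiomyocytes, 0.146 ± 0.0717 FPKM in knockout and 0.0874 ± 0.0434 FPKM in wild-type saline cardiomyocytes, and 1.94 ± 1.29 FPKM in hearts labelled knockout and 1.52 ± 0.666 FPKM in hearts labelled wild type.

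**Figure D2:**
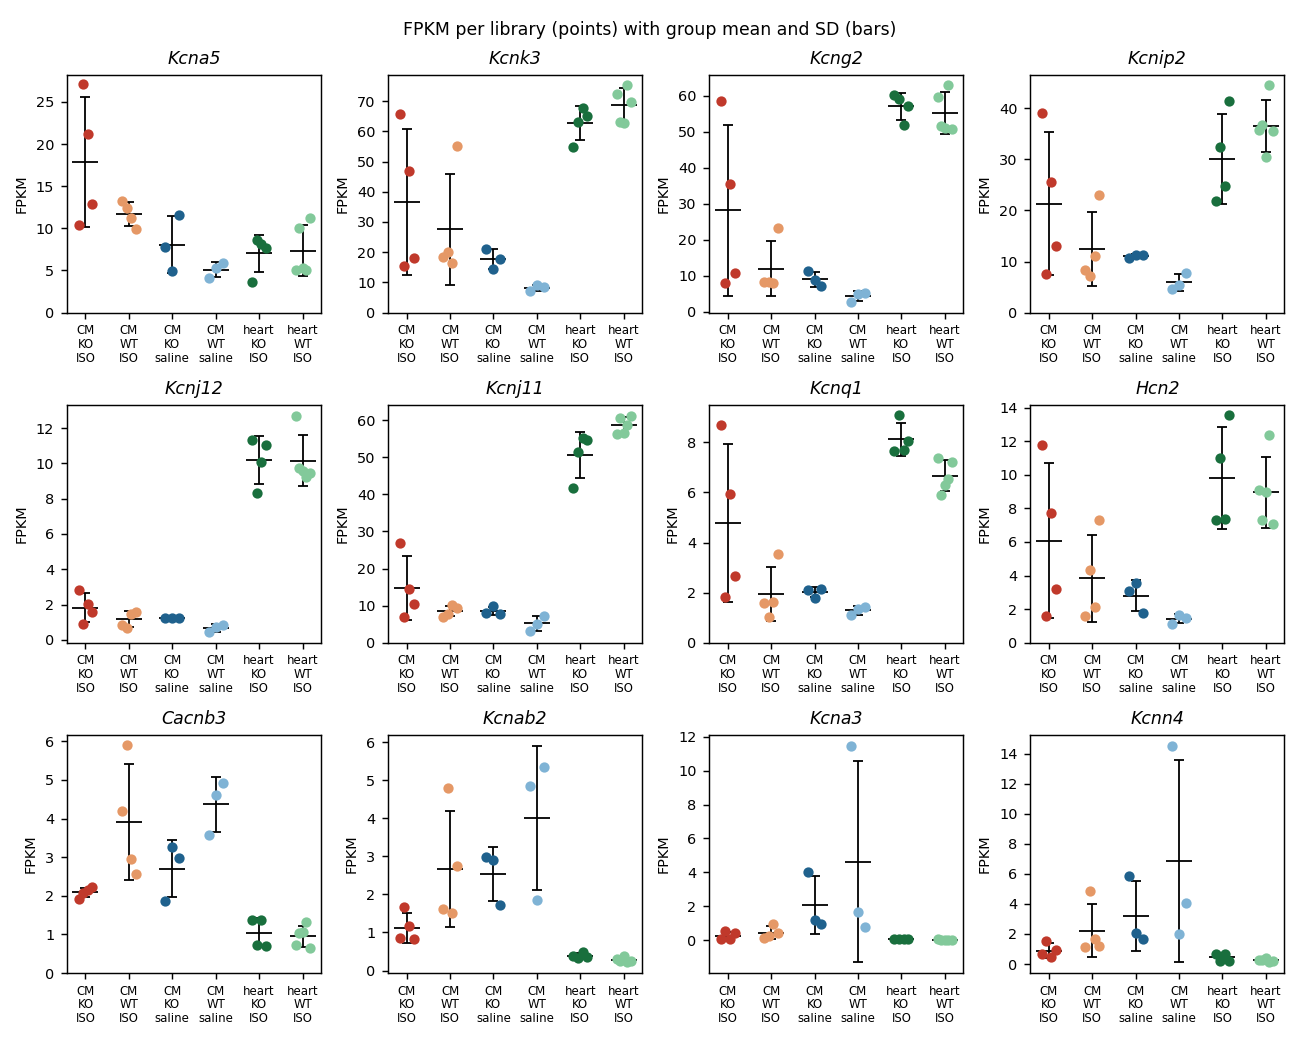
FPKM (vertical axes, linear) of 12 channel genes in each library (points) of the 6 groups, with the group mean (long line) and SD (whiskers). Kcna5 is higher in isoproterenol cardiomyocytes than in whole hearts on average (17.9 and 11.7 against 7.01 and 7.36 FPKM), while Kcnk3, Kcng2, Kcnj11 and Kcnj12 are highest in whole hearts. Without the scaling between libraries the Kcna5 difference between these tissues turned to -0.18 on the log2 scale.

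The comparison of tissue asked how the channels of isolated cardiomyocytes differ from those of whole hearts after isoproterenol, over 8 and 9 libraries with both genotypes. Differences were fitted with limma on log2(FPKM + 1), and a gene was called at a Benjamini-Hochberg adjusted p below 0.05 over all genes tested. Of the 143 members 36 passed the filter on low values and were tested, of which 5 were called higher and 27 lower in cardiomyocytes (88.9%), and 4 were not called. Of all 11386 genes tested 68.6% were called, 31.1% higher and 37.4% lower. The median difference was -0.98 over the members and -0.08 over all genes. Without the scaling that the deposited FPKM carry between libraries the median of all genes was -0.96 and that of the members -1.71, with 1 member called higher and 31 lower, and 684 of all genes called higher and 9179 lower. All 27 members called lower lay further below 0 there. That followed from the change of scaling, which moved the median of all genes by -0.88, and is no check of those calls. No library of the other tissue overlapped for 3 members that were higher and 13 that were lower in cardiomyocytes, where 13.4% and 13.3% of all genes did so.

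All 5 inward rectifiers tested were called lower in cardiomyocytes. Kcnj12 ranged from 0.687 to 2.83 FPKM (median 1.52) in cardiomyocytes and from 8.34 to 12.7 FPKM (median 9.74) in whole hearts, a log2 difference of -2.20 ± 0.13 (SE, limma adjusted p = 3.137e-09). Kcnj11 ranged from 6.94 to 26.8 FPKM (median 9.70) in cardiomyocytes and from 41.7 to 61.2 FPKM (median 56.2) in whole hearts, a difference of -2.26 ± 0.18. For neither gene did the tissues overlap. Kcnj5 also fell without overlap, by 2.12 on the log2 scale, with a median of 2.49 FPKM in cardiomyocytes and 13.1 FPKM in whole hearts. Kcnj3 and Kcnj2 fell by 1.65 and 0.98, and their ranges overlapped. Of the exon bases of Kcnj3, 31.08% lie opposite a long noncoding gene, and strand use was not stated.

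Cacna2d1 ranged from 0.829 to 3.31 FPKM in cardiomyocytes and from 6.16 to 12.3 FPKM in whole hearts, a log2 difference of -1.81 ± 0.15 (SE, limma adjusted p = 4.333e-08). The T-type pore Cacna1g, the small-conductance Kcnn2, the Kv1 pore Kcna7 and the pacemaker Hcn4 fell by 0.99, 0.72, 1.12 and 1.19 on the log2 scale, with no overlap of libraries. Of the voltage-gated potassium pores 7 of 8 tested were lower, among them Kcng2 (-1.83 ± 0.32) and Kcnh2 (-1.62 ± 0.25). Both Hcn genes and all 3 calcium pores tested were lower. Scn7a, Cacnb1 and Scnm1 were among the 4 not called, with differences of 0.42, -0.21 and -0.17. Without the scaling between libraries Scn7a turned to -0.47, and all 3 were called lower (limma adjusted p = 0.03525 for Scn7a), with -0.82 for Cacnb1 and -1.16 for Scnm1. Scn7a was called higher with equal totals outside the mitochondrial chromosome (0.55) and by limma-voom (0.59).

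The 5 members called higher in cardiomyocytes were Kcnab2, Cacnb3, Kcna5, Kcnn4 and Kcnk6, of which Kcna5 and Kcnk6 turned to -0.18 and -0.17 without the scaling between libraries and only Kcnab2 was still called there. Cacnb3 ranged from 1.93 to 5.90 FPKM (median 2.39) in cardiomyocytes and from 0.649 to 1.38 FPKM (median 1.03) in whole hearts, a log2 difference of 0.95 ± 0.12 (SE, limma adjusted p = 4.562e-06). Without that scaling it was 0.17 for Cacnb3 and 0.28 for Kcnn4. Kcnab2 ranged from 0.831 to 4.79 FPKM in cardiomyocytes and from 0.236 to 0.493 FPKM in whole hearts, a difference of 1.01 ± 0.14. Kcna5 ranged from 9.95 to 27.1 FPKM (median 12.6) in cardiomyocytes and from 3.69 to 11.3 FPKM (median 7.63) in whole hearts, a difference of 0.94 ± 0.21. Kcnk6 and Kcnn4 differed by 0.57 ± 0.10 and 0.80 ± 0.18. Kcnab2, Cacnb3 and Kcnk6 had every cardiomyocyte library above every heart.

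Cell type markers moved with the same contrast. Of 10 cardiomyocyte markers 9 were called lower in isolated cardiomyocytes, with a median difference of -1.26. Fibroblast markers were called higher in 9 of 10 (median 1.03), endothelial markers in 10 of 10 (1.51), macrophage markers in 9 of 10 (1.22), and the neutrophil, lymphocyte and erythroid markers in all 8, 6 and 6 tested (3.72, 1.53 and 6.40). Without the scaling between libraries these medians were -0.21, 0.32, 0.06, 3.185, 1.04 and 5.205 in that order, and that of the cardiomyocyte markers was -2.51. Other lists went both ways. Of 9 smooth muscle and pericyte markers 3 were called higher and 4 lower (median 0.06). Of 5 conduction markers 3 were higher and 2 lower, and of 3 nerve markers 2 were higher and 1 lower. Of 7 atrial markers 3 were called lower and 0 higher. The part of these markers in the channel differences was not tested. Of 29 genes tested from a list of channel partners, which anchor, modify or degrade channels, 18 were called lower and 5 higher in cardiomyocytes, with a median of -0.64. Fgf13, which binds sodium channel tails, and Ank2, which anchors channels to the cytoskeleton, fell by 1.38 and 0.99 on the log2 scale. Abcc8, a sulfonylurea receptor that joins Kcnj11 in potassium channels of mouse atrium, fell by 1.27. Rem1, a small GTPase that inhibits calcium channels, rose by 0.88.

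**Figure D3:**
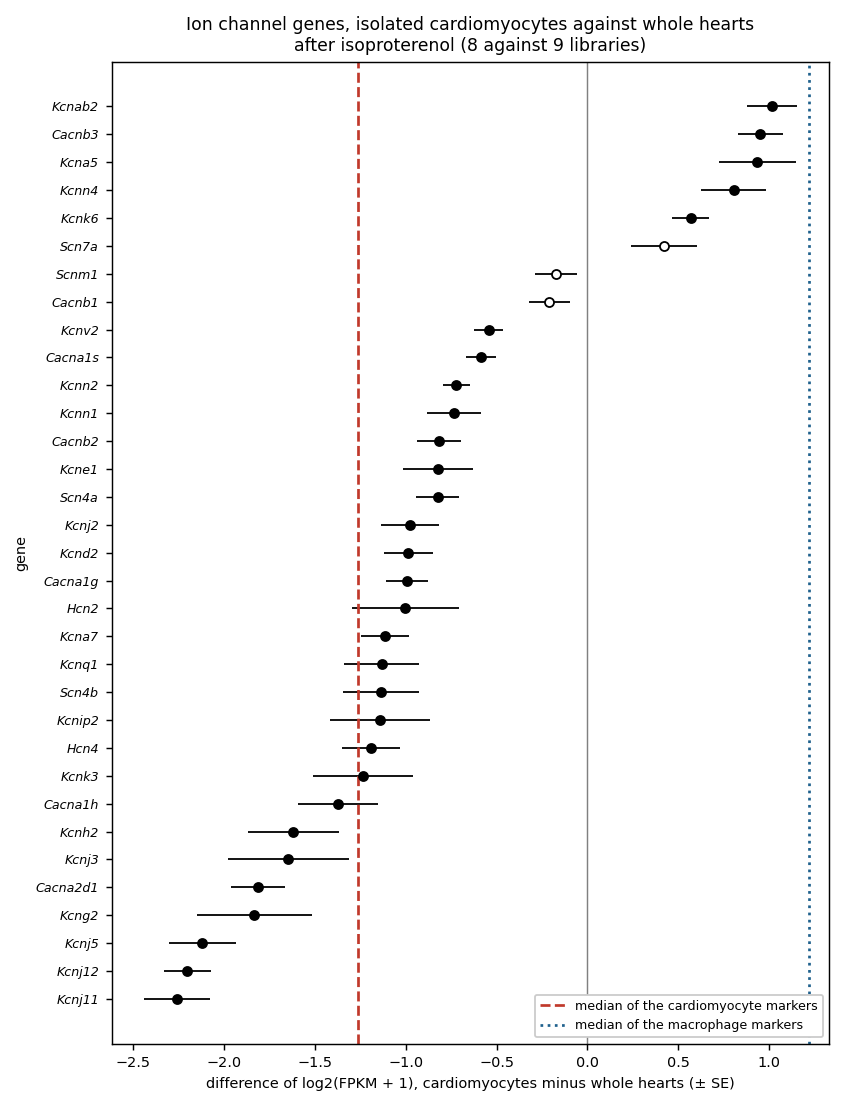
Difference of log2(FPKM + 1) between isolated cardiomyocytes and whole hearts after isoproterenol (points, horizontal axis) with its SE (bars) for 33 of the 36 members tested. Filled points were called and open points were not. The dashed line marks the median of the cardiomyocyte markers (-1.26) and the dotted line that of the macrophage markers (1.22). Without the scaling between libraries these medians were -2.51 and 0.06.

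The isoproterenol response was compared within each genotype, and then over both genotypes together, a contrast added after the data were seen that uses the same libraries. Of the 143 members 32 passed the filter and were tested. In wild-type cardiomyocytes 0 of them were called, where limma called 0.705% of 11919 genes, 0.654% higher and 0.0503% lower, and in knockout cardiomyocytes 0, where it called 0 genes. At an unadjusted p under 0.05 the members numbered 4 in each, among 24.3% and 6.77% of all genes, and limma-voom called no member in either. Over both genotypes 1 member was called, higher, against 2.22% of all genes, 1.38% higher and 0.847% lower. Without the scaling between libraries 0 members were called higher and 1 lower, namely Kcnab2 (-0.77, adjusted p = 0.04269, against -0.59 and no call with it), and with totals outside the mitochondrial chromosome made equal 0 were called. The split of all genes was 4 higher and 305 lower without the scaling between libraries, and 7 higher and 23 lower with totals outside the mitochondrial chromosome made equal. In the same contrast 12 members had an unadjusted p under 0.05, against 32.9% of all genes.

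The called member was Kcna5 (chr6, 126532553 to 126698192, minus strand, GRCm38). It had 10.4, 27.1, 21.1 and 12.9 FPKM in knockout and 13.3, 12.4, 11.3 and 9.95 FPKM in wild-type isoproterenol cardiomyocytes, against 7.77, 4.91 and 11.5 FPKM in knockout and 4.08, 5.29 and 5.89 FPKM in wild-type saline cardiomyocytes. In wild-type cells every isoproterenol library lay above every saline library, while in knockout cells 1 saline library lay above the lowest isoproterenol library. Kcna5 rose by 1.05 ± 0.22 on the log2 scale over both genotypes (SE, limma adjusted p = 0.02866). Within wild-type cells the difference was 1.07 ± 0.30 (adjusted p = 0.1133) and within knockout cells 1.03 ± 0.30 (adjusted p = 0.5821). These like values held under the deposited scaling. Without it the difference was 1.56 in knockout cells and 0.014 in wild-type cells, and the response of knockout minus that of wild-type cells was 1.54 (limma adjusted p = 0.008963), against -0.04 with it. The median of all genes in that contrast was then 1.25. The call over both genotypes was lost without the filter on low values, without the scaling between libraries (difference 0.78), with totals outside the mitochondrial chromosome made equal (0.89), and without any 1 of PNXM657, PNXM658, PNXM664, PNXM644, PNXM647, PNXM655 or PNXM648 (differences of 0.9111 to 1.084, adjusted p up to 0.08762).

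Endothelial markers moved in the same direction, with 10 of 10 above 0 and 4 called higher over both genotypes. They summed to between 385.4 and 666 FPKM in knockout isoproterenol cardiomyocytes and between 463.5 and 675.2 FPKM in wild-type ones, against 395.3 to 412.4 FPKM in knockout saline cardiomyocytes and 253.1 to 356.1 FPKM in wild-type ones. Cardiomyocyte markers were above 0 in 10 of 10, with a median of 0.72 and 0 called. The knockout library with the most Kcna5, PNXM656 at 27.1 FPKM, had the lowest cardiomyocyte marker sum of its group (2568) and the highest endothelial sum (666). Their part in the Kcna5 difference was not tested. In the 3 libraries highest in cardiomyocyte markers Kcna5 was at 10.4 FPKM in PNXM654 and 9.95 FPKM in PNXM648, each the lowest of its group, and at 21.1 FPKM in PNXM655, the second highest of its group.

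Other members had larger differences with more spread. Kcnk3 had 65.8, 15.4, 46.96 and 18.0 FPKM in knockout and 18.4, 20.1, 16.4 and 55.2 FPKM in wild-type isoproterenol cardiomyocytes, against 20.9, 14.5 and 17.9 FPKM in knockout and 6.996, 9.0 and 8.43 FPKM in wild-type saline cardiomyocytes. The difference over both genotypes was 1.12 ± 0.34 (SE, limma adjusted p = 0.08067). Its highest values stood in PNXM654, PNXM655 and PNXM648, and the other 5 isoproterenol libraries spanned 15.4 to 20.1 FPKM, which overlaps knockout saline but not wild-type saline. Kcng2, Kcnip2 and Hcn2 were also highest in these 3 of the 8 isoproterenol libraries. Without PNXM656, the knockout library with 2568 FPKM of cardiomyocyte markers, 7 of 31 members tested were called. Of all genes 1954 were called then, against 265 with that library. The 7 members were Kcnk3, Kcng2, Kcnj11, Kcnip2, Kcna5, Hcn2 and Kcna3.

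Kcna3 and Kcnn4 were lower on average after isoproterenol, and neither was called. Kcna3 had 0.0732, 0.525, 0.0886 and 0.431 FPKM in knockout and 0.125, 0.23997, 0.9899 and 0.417 FPKM in wild-type isoproterenol cardiomyocytes, against 4.02, 1.17 and 0.978 FPKM in knockout and 11.5, 1.67 and 0.785 FPKM in wild-type saline cardiomyocytes. Its difference over both genotypes was -1.30 ± 0.37 (SE, limma adjusted p = 0.07248), and that of Kcnn4 was -1.06 ± 0.36 (adjusted p = 0.08873). Both were highest in PNXM657, a wild-type saline library, at 11.5 and 14.5 FPKM, and lymphocyte markers were also highest there at a sum of 221.1 FPKM against 12.67 to 105.6 in the other 13 cardiomyocyte libraries. Over both genotypes 8 of 8 lymphocyte markers were below 0 (median -0.73, 0 called) as were 10 of 10 macrophage markers (median -0.47, 0 called) and 6 of 6 erythroid markers (median -0.39, 0 called). Neutrophil markers went the other way, with 8 of 9 above 0 (median 1.08, 0 called). The part of these markers in the 2 channel differences was not tested. Of 26 channel partners tested 0 were called, and 18 were above 0, with a median of 0.19.

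Within single genotypes, Scnn1a differed by -0.57 ± 0.25 in wild-type cells, Kcnab2 by -0.73 ± 0.32 in knockout cells and Kcnq1 by 0.77 ± 0.36 in knockout cells, none called by limma (adjusted p = 0.1969, 0.5821 and 0.5821). Without the scaling between libraries Scnn1a was called at -1.01 (adjusted p = 0.002384), Kcnab2 was at -0.31 and Kcnq1 at 1.14. No isoproterenol library overlapped saline for 4 members, all higher, in wild-type cells, where 11.7% of all genes were higher throughout and 7.11% lower, and for 4 members, all lower, in knockout cells, where 4.82% were lower throughout and 3.33% higher. The 4 in wild-type cells were Kcna5, Kcnk3, Kcng2 and Kcnn1, and the 4 in knockout cells Kcnab2, Kcna3, Kcnn4 and Kcnk5. The response of knockout cells minus that of wild-type cells called 0 members and 0 of all genes by limma or limma-voom, with 0 members and 2.47% of all genes at an unadjusted p under 0.05. The 4 members with the smallest p were Kcnk3 (-0.70 ± 0.68), Scn7a (-0.44 ± 0.46), Kcnq1 (0.47 ± 0.51) and Scn4b (0.51 ± 0.55), each with an adjusted p of 0.9999. Without the scaling between libraries Kcnk3 and Scn7a turned to 1.02 and 0.92, Kcnq1 and Scn4b were called at 1.51 and 1.36 (adjusted p = 0.01576 and 0.04055), and the median of all genes moved by 1.27.

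**Figure D4:**
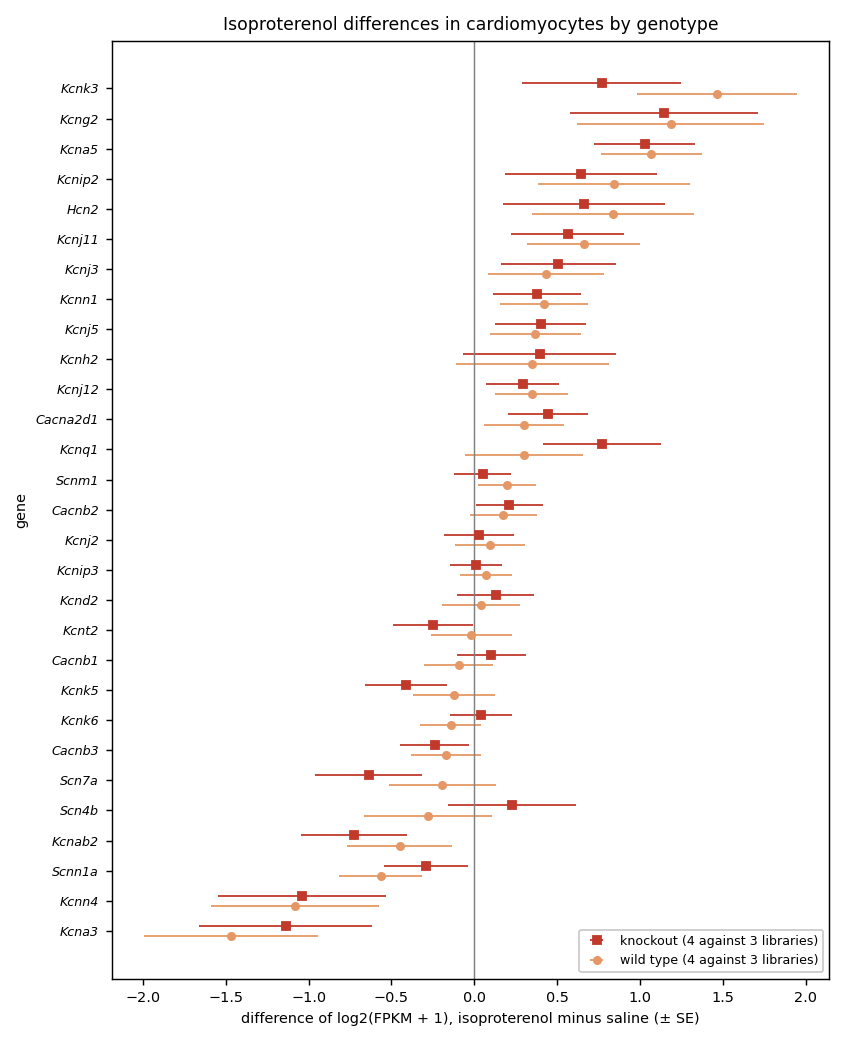
Difference of log2(FPKM + 1) between isoproterenol and saline cardiomyocytes (horizontal axis) with its SE (bars) for 29 of the 32 members tested, in knockout (squares) and wild-type (circles) mice. Kcnk3, Kcng2 and Kcna5 lie at the top, and Kcna3 at -1.14 and -1.47 and Kcnn4 at -1.04 and -1.08 at the bottom.

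Panx1 knockout was compared with wild type within each treatment in cardiomyocytes. Limma called 0 of 32 members and 0 of 11919 genes in either treatment, and so did limma-voom. At an unadjusted p under 0.05 there were 4 members after isoproterenol and 2 after saline, against 6.2% and 3.53% of all genes. Knockout minus wild type was above 0 for 24 of 32 members after isoproterenol (75.0%, against 51.4% of all genes) and for 23 after saline (71.9%, against 51.6%), with medians of 0.26 and 0.25. Without the scaling between libraries the median after isoproterenol was 0.70 (0.55 for all genes), and that after saline turned to -0.31 (-0.68 for all genes). Cardiomyocyte markers were above 0 in 10 of 10 in both treatments, with medians of 0.55 and 0.92, and lymphocyte markers below 0 in 8 of 8, with medians of -0.87 and -0.34, and 0 of these were called. Without the scaling between libraries the cardiomyocyte markers' medians were 1.33 after isoproterenol and -0.07 after saline. Their part in the channel differences was not tested.

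Cacnb3, a calcium channel beta subunit (chr15, 98632220 to 98644530, plus strand), had the smallest p of the members in both treatments. After isoproterenol it had 1.93, 2.07, 2.14 and 2.22 FPKM in knockout against 4.19, 5.903, 2.96 and 2.56 FPKM in wild-type cardiomyocytes, and after saline 1.86, 3.25 and 2.98 FPKM in knockout against 3.57, 4.61 and 4.92 FPKM in wild-type cardiomyocytes. Every knockout library lay below every wild-type library in both treatments. The difference was -0.62 ± 0.19 after isoproterenol (SE, limma adjusted p = 0.7965), which turned to 0.0071 without the scaling between libraries. After saline it was -0.55 ± 0.22 (adjusted p = 0.8948), and -1.26 without that scaling, where it was called. Cacnb3 was the only member with this order throughout after isoproterenol, where 2.47% of all genes had it, and the only one after saline, where 2.89% had it. In the other direction 0 members after isoproterenol, against 0.873% of all genes, and 11 after saline, against 11.9%, were higher in every knockout library.

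Those 11 include Kcnk3 and Kcnj11. Kcnk3 differed by 1.03 ± 0.51 after saline (SE, limma adjusted p = 0.8948), and by 0.12 without the scaling between libraries. Kcnj11 had 8.07, 9.83 and 7.795 FPKM in knockout against 3.22, 5.18 and 7.34 FPKM in wild-type saline cardiomyocytes, a difference of 0.66 ± 0.37 that turned to -0.18 without the scaling between libraries. Scnn1a differed by -0.61 ± 0.27 after saline, and by -0.99 without that scaling, where it was called (adjusted p = 0.02304). After isoproterenol Kcnq1 had 8.703, 1.85, 5.92 and 2.65 FPKM in knockout against 1.61, 1.02, 1.63 and 3.53 FPKM in wild-type cardiomyocytes, a difference of 0.87 ± 0.33 (adjusted p = 0.7965), and of 1.32 without that scaling, where it was called (adjusted p = 0.03656). Its highest values were those of PNXM654 and PNXM655, 2 of the libraries highest in cardiomyocyte markers, and the groups overlapped. Kcnk5 and Kcnab2 differed by -0.59 ± 0.23 and -0.72 ± 0.29 after isoproterenol, with overlap, and by -0.14 and -0.15 without that scaling. Of 26 channel partners 0 were called in either treatment.

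Whole hearts were compared by their labels, which Panx1 went against. Of the 143 members 34 passed the filter and were tested. Limma called 0 of them and 0 of 10189 genes, as did limma-voom, and 8 members and 6.4% of all genes had an unadjusted p under 0.05. In 4 members every heart labelled knockout lay below every heart labelled wild type, where 1.63% of all genes did, and in 1 above, where 0.756% did. The 4 were Kcnv2, Cacna1s, Kcna7 and Kcnj11, and the 1 was Kcnq1. The median difference over the members was 0.00091, and over all genes -0.04.

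Kcnv2 (chr19, 27322588 to 27337179, plus strand) had 0.556, 0.327, 0.886 and 0.616 FPKM in hearts labelled knockout against 1.296, 1.36, 1.29, 1.298 and 1.24 FPKM in hearts labelled wild type. The hearts labelled wild type lay close together, those labelled knockout were spread, and the labels did not overlap. The log2 difference was -0.54 ± 0.09 (SE, limma adjusted p = 0.2538), the smallest p of the members. With array weights, which give variable libraries less influence, it was -0.60 and was called (adjusted p = 0.03676). Cacna1s had 0.596, 0.591, 0.626 and 0.8004 FPKM in hearts labelled knockout against 1.12, 1.07, 1.18, 1.54 and 1.603 FPKM in hearts labelled wild type, a difference of -0.47 ± 0.09 (adjusted p = 0.3621). Of its exon bases 19.98% lie opposite an antisense gene. Kcna7 and Kcnn1 differed by -0.27 ± 0.08 and -0.27 ± 0.09, and both by -0.17 without the scaling between libraries, with 1.98 to 2.45 FPKM of Kcna7 in hearts labelled knockout against 2.75 to 3.15 FPKM in hearts labelled wild type.

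Some members known for atrial or nodal expression varied between hearts within a label. The summed FPKM of 7 atrial markers was 5536 in PNXM199 and 2842 in PNXM239, both labelled knockout, against 92.45 to 1296 in the other 7 hearts. In PNXM229, PNXM241 and PNXM242 the marker Nppa made up 631.3, 77.97 and 222.5 FPKM of sums of 641.9, 92.45 and 233.5. The marker Myl7 was 0.566, 0.968 and 0.4335 FPKM there, 1799 in PNXM199, 922.9 in PNXM239 and 74.06 to 308.3 in the rest. Cacna1h had 6.27, 1.87, 8.38 and 1.63 FPKM in hearts labelled knockout against 2.87, 1.404, 1.78, 0.885 and 1.74 FPKM in hearts labelled wild type, and its 2 highest values were those of PNXM199 and PNXM239. Kcnj5 had 20.3, 12.5, 22.6 and 13.1 FPKM in hearts labelled knockout against 14.3, 12.6, 13.01, 8.24 and 13.4 FPKM in hearts labelled wild type. Kcnj3 had 13.7, 2.18, 15.6 and 3.14 FPKM in hearts labelled knockout against 6.44, 8.88, 6.69, 3.93 and 9.34 FPKM in hearts labelled wild type. In both genes the same 2 libraries were highest. Hcn4 had 2.02, 1.24, 3.70 and 0.774 FPKM in hearts labelled knockout against 1.73, 1.13, 2.60, 0.974 and 1.18 FPKM in hearts labelled wild type. Its highest value was that of PNXM239, and PNXM240, labelled wild type, came next. Cacna2d2, an alpha2delta subunit named here after its values were seen, had 4.35, 0.356, 5.82 and 0.149 FPKM in hearts labelled knockout against 0.833, 0.355, 0.7702, 0.175 and 0.177 FPKM in hearts labelled wild type. The part of the atrial markers in these values was not tested. Cacna2d2 did not pass the filter, and Cacna1h, Kcnj5, Kcnj3 and Hcn4 were not called between labels. None of them was among the 4 members with the smallest p there.

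**Figure D5:**
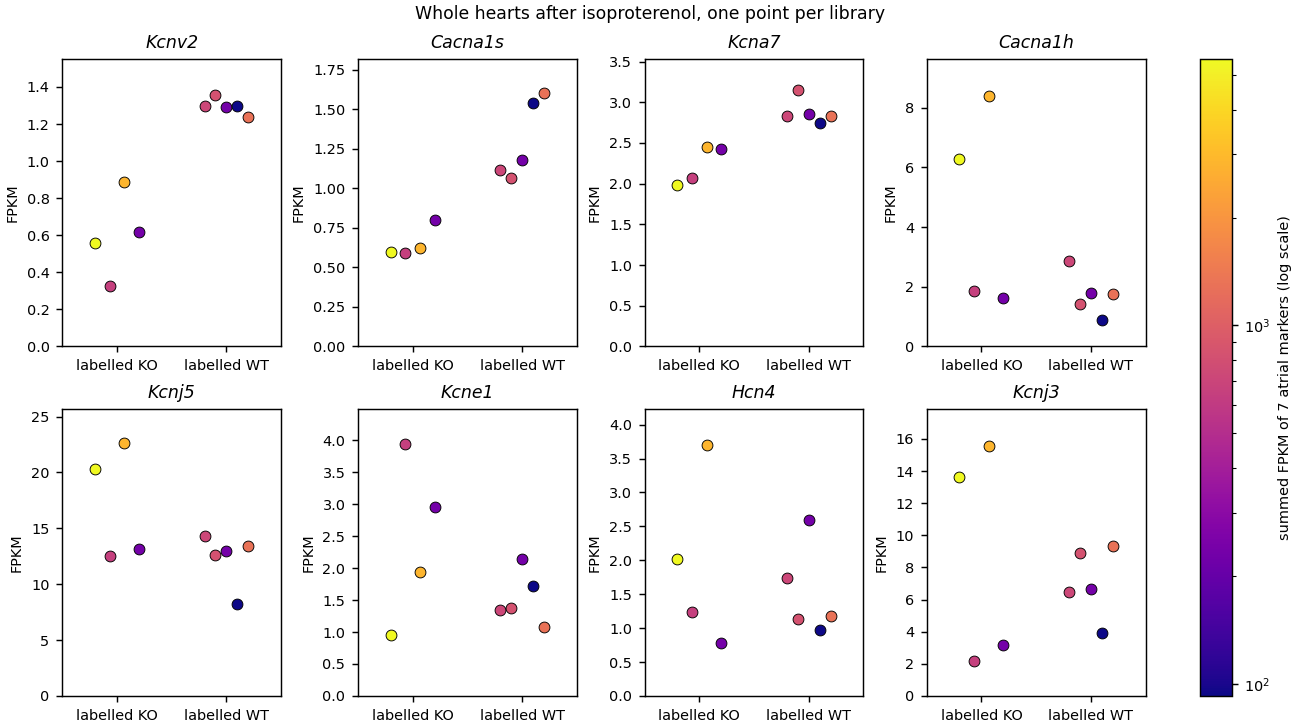
FPKM (vertical axes, linear) of 8 channel genes in each whole heart (points), by label, coloured by the summed FPKM of 7 atrial markers (log colour scale). Nppa alone makes up most of that sum in PNXM229, PNXM241 and PNXM242. Kcnv2, Cacna1s and Kcna7 separate the labels, while Cacna1h, Kcnj5 and Kcnj3 are highest in the 2 hearts with atrial sums of 5536 and 2842.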

How the data were processed

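The deposited FPKM table held 46077 genes in 23 libraries, with 1 misaligned line left out and 27 date-like symbols recovered by identifier. Per the submitters' processing notes the authors aligned reads with HISAT2 2.0.5, counted them with featureCounts (version not given) and deposited FPKM. The build and strand use are not given in the sources used here. Gene coordinates match GRCm38 (99.94% of 45228 identifiers shared with GENCODE M21 overlap). All of 392392 low values were whole reads within 0.01. The library size behind the FPKM, divided by assigned reads, varied, so the FPKM carry a scaling between libraries. After isoproterenol this ratio was 0.43 to 0.64 for wild-type cardiomyocytes and 0.82 to 1.09 for knockout ones. After saline it was 0.88 to 1.39 and 0.45 to 0.86 in that order, and hearts had 1.39 to 1.88. The mitochondrial share of assigned reads lay between 46.8% and 80.01% for cardiomyocytes, and between 16.68% and 25.45% for hearts. Its part in the scaling was not tested. "Without the scaling" means FPKM per assigned read. Columns headed WHO were read as whole hearts.

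R 4.3.3 and limma 3.58.1 were used to fit differences of log2(FPKM + 1) with a mean-variance trend, two-sided, over genes of at least 1 FPKM in at least 3 (cardiomyocytes) or 4 libraries. The 14 cardiomyocyte, 9 whole-heart and 17 isoproterenol libraries were each fitted together, and the fits were tested on simulated data. A fold change on this scale understates that of low genes. Members and lists were chosen with earlier results of these data known. Named members are those called, at most 10 per comparison by p, or else the 4 with the smallest p. For levels they are the 2 highest per family and the detected members of the cardiac list. A pair of genes with such symbols was left out, and a few members are counted but not reported here by name or shown in figures. Promoters are from RefSeq, GRCm38.p6. Alternatives were a pseudocount of 0.1, no filter, a filter of 5 FPKM, FPKM without the scaling, equal totals outside the mitochondrial chromosome, limma-voom on recovered reads, array weights, fits of the compared groups alone, and leaving out each library. Of the 44 detected members 15 share exon bases with another gene, 2 of them over 10%. Python 3.11.15, pandas 2.3.3, numpy 2.4.6 and matplotlib 3.10.9 were used.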

Additional observations from a re-analysis of the deposited data

Results flagged for a closer look

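Among 31 detected channel genes tested in the groups of 4 or 5 libraries, 9 of 124 groups held 1 library far from the others by Dixon's test, which chance gives in about 1 in 20 groups. Wild-type isoproterenol library PNXM648 was such a library in Kcnk3 at 55.2 FPKM, in Kcnn1 at 2.02 FPKM and in Kcna7 at 1.23 FPKM, each the highest of its group. PNXM647 of the same group was highest in Kcnn4 at 4.83 FPKM. Among hearts labelled knockout PNXM242 was highest in Cacna1s at 0.800 FPKM. Among hearts labelled wild type PNXM241 was lowest in Kcnj5 at 8.24 FPKM and highest in Kcnn1 at 3.42 FPKM, PNXM238 was highest in Kcna7 at 3.15 FPKM, and PNXM227 was highest in Kcnj12 at 12.7 FPKM. Over all 44 detected members, PNXM654 was the highest of its group in 30 and PNXM648 in 25, and PNXM656 was the lowest of its group in 29 and PNXM657 in 31.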

How the results depend on the processing

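For the members that the rule named in each comparison, 648 recomputed differences kept their direction and side of the threshold, 16 passed it, 11 no longer did and 4 turned. These 4 turned without the scaling between libraries: Kcnj11 after saline, knockout minus wild type, to -0.18, Cacnb3 after isoproterenol, knockout minus wild type, to 0.0071, and, for the response of knockout minus that of wild type, Kcnk3 to 1.02 and Scn7a to 0.92. Over all members tested the same setting turned 21 of 32 for knockout minus wild type after saline, 4 after isoproterenol, 17 for isoproterenol minus saline in wild-type cells, 2 in knockout cells and 5 over both genotypes, 17 for the difference of responses, 6 of 34 in whole hearts and 3 of 36 between tissues (Kcna5, Kcnk6 and Scn7a). It called 6 members for knockout minus wild type after saline, 13 after isoproterenol, 12 for isoproterenol minus saline in wild-type cells and 18 for the difference of responses, where 0 were called with the scaling, and moved the median of all genes by -0.69, 0.55, -0.81 and 1.27. Of the 11919 genes tested it called 6181, 4956, 7866 and 10031 in the same comparisons. For knockout minus wild type after isoproterenol the share of the 32 members called was near that of all genes. In the other comparisons of these the share of members called was lower than that of all genes. Isoproterenol minus saline in wild-type cells gave 1 member (Cacna1e) with no filter and 2 (Kcna5 and Scnn1a) with array weights, beside 107 and 1262 of all genes. Over both genotypes the count of 1 (Kcna5, higher) became 1 other (Kcnab2, lower) without the scaling, 2 with a pseudocount of 0.1, 0 with equal totals outside the mitochondrial chromosome, 4 with array weights, and 0 to 7 without 1 library. Of all genes that pseudocount called 281, array weights 1508, and the fit without PNXM656, which gave the 7, called 1954. Array weights gave 1 member (Kcnv2) in whole hearts, beside 6 of all genes. Between tissues 60 members were called with no filter, where more are tested (136), beside 10208 of all genes. With a filter of 5 FPKM, where fewer are tested (15), 14 were called, beside 4170 of all genes. A change of filter also changes how many of all genes are tested. That number was not kept, so these counts of all genes give no share. The count of 44 detected members was 55 at a minimum of 0.5 FPKM and 32 at 2 FPKM. The cause of the other changes was not tested. Leaving out 1 library gave 32 to 35 members between tissues and 0 in the remaining comparisons. No paired analysis was possible because the table's columns carry no replicate number. Kcnh3, the detected member with the fewest reads, rested on 633 reads over all libraries.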
